A study of Mus musculus with 16 samples.

Results

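Purkinje cell marker genes are genes whose transcripts are used to recognise Purkinje cells, and 7 of them were examined on gene expression arrays of mouse brain: Pcp2, Car8, Calb1, Ppp1r17, Slc1a6, Itpr1 and Homer3. Members were all probe sets (groups of short probes that together read 1 transcript) whose only symbol in the platform annotation was 1 of these names. Of the 45101 probe sets on the array, 13 met this rule, from 6 of the 7 genes. Itpr1 was not analysed here.

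The study profiled total RNA of 2 brain parts, cerebellum and everything else (the rest of the brain), from age-matched WT mice and their SINE KO littermates, females and males separately, on 16 arrays. Each of the 8 groups held 2 arrays: WT female cerebellum, WT male cerebellum, KO female cerebellum, KO male cerebellum, and the same genotypes and sexes for the rest of the brain. The KO mice were homozygous for a 4-bp deletion made by CRISPR in the SINE exon of Ppargc1a, the gene of the transcriptional coactivator PGC1α, on a C57BL/6J background. That exon holds the start codon of a brain isoform of PGC1α, the deletion shifts the reading frame just after it, and all KO mice descend from 1 founder line. Because the transcript of the isoform persists in these mice, a probe for Ppargc1a does not check the genotype labels. The ages of the profiled mice, and whether arrays of both brain parts with the same number belong to a single animal, are not given in the sources used here.

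Purkinje cells are the large inhibitory neurons of the cerebellar cortex and its only output. Each receives excitation from parallel fibres, the axons of granule cells, and from a climbing fibre, and parallel fibre input acts in part through metabotropic glutamate receptors, whose signalling makes the second messenger IP3 and so frees calcium from internal stores. Most of the genes examined serve this pathway. Slc1a6 encodes EAAT4, a glutamate transporter of the spines; Homer3 a scaffold that ties such receptors to the IP3 receptor; Itpr1 the IP3 receptor itself; Car8 a protein related to carbonic anhydrases that lowers the affinity of that receptor for IP3; and Calb1 the calcium buffer calbindin. Ppp1r17, also called G-substrate, is a phosphatase inhibitor activated by cGMP-dependent protein kinase, and Pcp2 (L7) is a modulator of G protein signalling found almost only in Purkinje cells and retinal bipolar cells. Calb1 is also made by many neurons outside the cerebellum.

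The deposited values are not intensities. They take 5 distinct values, which were read here as detection levels. Level 2 stands for detected and level 1 for marginal, and a transcript at level 0 or lower was counted as not detected. Neither the authors nor the files state this reading. A level gives presence and not amount, so genes seen on every array can still be unequal in amount, and no fold change can be had from these values. Between 25517 and 28155 probe sets were detected per array, and precision is limited by how many arrays there are. In whole tissue, fewer cells of a type and less RNA per cell cannot be told apart.

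The sequences upstream of Pcp2 and Homer3 are shown because, on the cerebellum arrays, 2 probe sets of Pcp2 and that of Homer3 were detected and missing on the same arrays. The likeness rests on 1 array, WT female cerebellum replicate 2, which alone missed them. It is not special to this pair. Ppp1r17 1449240_at had the same cerebellum pattern, and Car8 1424958_at was marginal on that array and detected on the others. In the female cerebellum 1.77% of all probe sets were missing on that array alone. Both sequences are RefSeq windows of 250 bases that end just before the annotated start of transcription, in build GRCm38.p6 and written on the strand of the gene. The Pcp2 window lies at chr8:3625548-3625797 on the minus strand, and the Homer3 window at chr8:70282749-70282998 on the plus strand. Capitals mark AGGTCA, the half-site bound by nuclear receptors such as RORα, a factor that Purkinje cells need in order to mature, or its reverse complement TGACCT.
Pcp2: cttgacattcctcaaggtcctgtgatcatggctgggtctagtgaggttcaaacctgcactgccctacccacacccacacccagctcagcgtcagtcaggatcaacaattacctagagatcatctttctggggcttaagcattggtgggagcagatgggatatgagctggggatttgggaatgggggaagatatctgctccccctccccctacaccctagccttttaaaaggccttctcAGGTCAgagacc
Homer3: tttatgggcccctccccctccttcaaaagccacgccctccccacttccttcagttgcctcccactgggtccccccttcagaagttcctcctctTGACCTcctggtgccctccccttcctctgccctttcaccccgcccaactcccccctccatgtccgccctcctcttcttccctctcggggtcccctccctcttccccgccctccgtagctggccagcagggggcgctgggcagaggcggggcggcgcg
The motif began 12 bases before the start in Pcp2, on the strand of the gene, and lay 157 bases before it on the opposite strand in Homer3. Searched on both strands of the same 250 bases, it was present in 14% of 32851 RefSeq promoters. Pcp2 had 4 annotated starts, and 3 of the 4 windows held the motif, 2 of them sharing 1 copy. TATAAA, the letters of a TATA box, was found in 1 of the 4 Pcp2 windows and not in that of Homer3, against 12.4% of all promoters. The window of Slc1a6 held neither set of letters. These are matches of letters and not measured binding sites. Promoter sequences of Car8, Calb1, Ppp1r17 and Itpr1 were not used here.

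Before the members are described, 2 arrays have to be named, because they differed most from the other arrays of their brain part in which members they detected. On WT female cerebellum replicate 2, 68.4% of the 19 probe sets of granule cell markers were detected, against 89.5% to 100% on the other 7 cerebellum arrays. The same array detected 63.6% of the 11 forebrain probe sets, against 27.3% to 36.4%, including both probe sets of Drd1, the dopamine receptor of striatal neurons, which no other cerebellum array detected. Emx1 and Tbr1, transcription factors of the cortex, were not detected on it. KO female rest-of-brain replicate 1 was less clearly set off: it detected 78.9% of the granule cell probe sets (15 of 19), against 47.4% to 73.7% on the other 7 rest-of-brain arrays, the highest of which detected 14. It detected 81.8% of the forebrain probe sets, as did all other rest-of-brain arrays. Of the granule cell probe sets, Fat2 was detected on it alone in the rest of the brain, while Zic2, Pax6 1425960_s_at and Pax6 1437816_at were not detected on it and Pax6 1452526_a_at was marginal. The part of these cell markers in what follows was not tested. Counts of arrays for the members, and the range of each list's share, are therefore given with and without them.

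**Figure D1:**
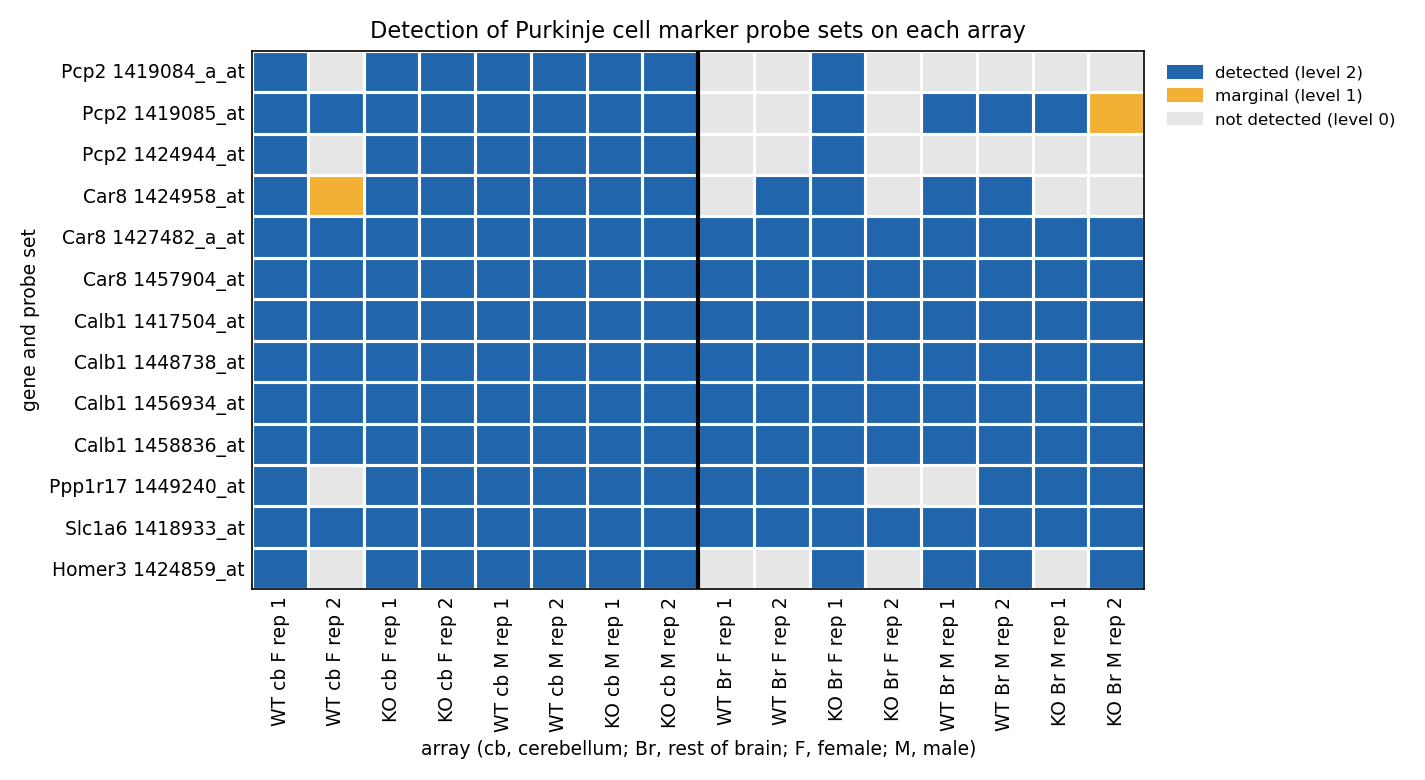
Detection level of each of the 13 Purkinje cell marker probe sets (rows) on each of the 16 arrays (columns); blue is detected, orange marginal and grey not detected, and the black line parts cerebellum (cb) from rest of brain (Br). Of the 8 cerebellum arrays, 7 detected all 13 probe sets; WT female replicate 2 detected 8, and among the rest-of-brain arrays KO female replicate 1 alone detected all 13.

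The cerebellum arrays detected nearly the whole set. All 13 probe sets were detected on 7 of the 8 cerebellum arrays, whatever the genotype or sex, and 8 of 13 (61.5%) on WT female replicate 2. On the 8 rest-of-brain arrays the share detected was 61.5% and 69.2% in WT females, 100% and 53.8% in KO females, 76.9% and 84.6% in WT males, and 69.2% on both arrays of KO males. The mean was 95.2% ± 13.6 (SD, n = 8) in the cerebellum and 73.1% ± 14.2 (SD, n = 8) in the rest of the brain, a difference of 22.1 percentage points. The ranges overlapped through WT female cerebellum replicate 2 and KO female rest-of-brain replicate 1. Without those 2 arrays every cerebellum array lay above every rest-of-brain array, with a difference of 30.8 points. The 2 arrays left out were the lowest of the cerebellum and the highest of the rest of the brain in this same share. Leaving them out therefore had to widen the gap, and the values without them are a description and no test.

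**Figure D2:**
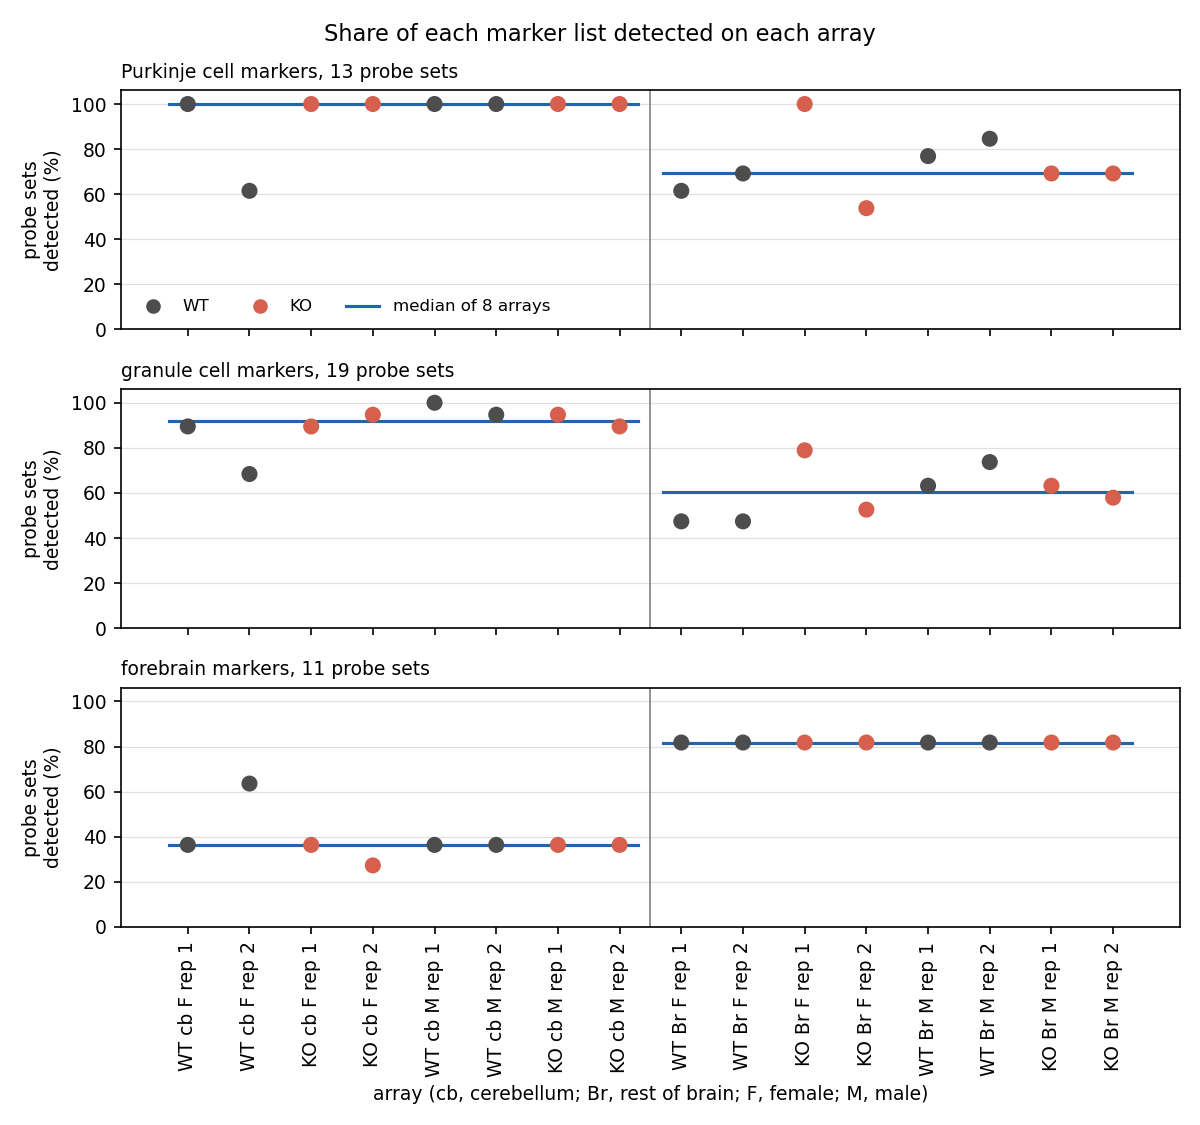
Percentage of probe sets detected on each array for Purkinje cell, granule cell and forebrain markers; each point is an array (grey WT, red KO) and the blue line the median of the 8 arrays of a brain part. WT female cerebellum replicate 2 is the lowest cerebellum array for both cerebellar lists (61.5% and 68.4%) and the highest for forebrain markers (63.6%), and KO female rest-of-brain replicate 1 is the highest rest-of-brain array for both cerebellar lists (100% and 78.9%).

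The members fell into 2 kinds. Detected on all 16 arrays were 7 of the 13 probe sets (53.8%): the 4 of Calb1, 2 of the 3 of Car8 and the single one of Slc1a6. The other 6, from Pcp2, Car8, Ppp1r17 and Homer3, were detected on some arrays, and each of them on more cerebellum than rest-of-brain arrays. That is 46.2% of the members, while 9.64% of all probe sets on the array were detected on more cerebellum arrays. None of the members was detected on more rest-of-brain arrays, against 12.7% of all probe sets.

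Pcp2 gave the widest contrast between the brain parts. Its probe sets 1419084_a_at and 1424944_at had the same state on every array: detected on 7 of 8 cerebellum arrays, all but WT female replicate 2, and on 1 of 8 rest-of-brain arrays, KO female replicate 1. Fisher's exact test, two-sided, gave p = 0.0101 for each, and Benjamini-Hochberg adjustment over all 45101 probe sets gave 0.59. The remaining probe set, 1419085_at, was detected on all 8 cerebellum arrays. In the rest of the brain it was detected on KO female replicate 1, both WT male arrays and KO male replicate 1, was marginal on KO male replicate 2, and was not detected on both WT female arrays and KO female replicate 2. Its 8 against 4 arrays gave an exact p of 0.0769. The probe sets of Pcp2 thus disagreed on the male rest-of-brain arrays, where 1419085_at was detected on 3 of 4 and the other two on none. Counted as a gene, Pcp2 was detected by at least 1 probe set on 8 cerebellum and 4 rest-of-brain arrays.

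Homer3, read by the single probe set 1424859_at, was detected on 7 cerebellum arrays, again all but WT female replicate 2. In the rest of the brain it was detected on 4 arrays: KO female replicate 1, both WT males and KO male replicate 2. The exact p was 0.282. With the 2 named arrays left out it was detected on 7 of 7 cerebellum and 3 of 7 rest-of-brain arrays. Among the 8 rest-of-brain arrays Homer3 was thus seen on 3 of 4 from males and on 1 of 4 from females, and that 1 was KO replicate 1.

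Car8 was detected on all 16 arrays by 1427482_a_at and 1457904_at. Its remaining probe set, 1424958_at, was detected on 7 cerebellum arrays and was marginal on WT female replicate 2. In the rest of the brain it was detected on WT female replicate 2, KO female replicate 1 and both WT males, 4 of 8, with an exact p of 0.282. With the 2 named arrays left out the counts were 7 of 7 and 3 of 7. Since the other probe sets saw the transcript everywhere, Car8 as a gene was detected in both brain parts on every array.

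Ppp1r17, read by 1449240_at, was detected on 7 cerebellum arrays, all but WT female replicate 2, and on 6 rest-of-brain arrays, all but KO female replicate 2 and WT male replicate 1. The exact p was 1. With the 2 named arrays left out it was detected on 7 of 7 cerebellum and 5 of 7 rest-of-brain arrays. Of the 6 varying probe sets it was the one with the smallest gap between the brain parts.

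The detection levels hold no contrast for the calcium buffer and the transporter. Calb1 was detected on all 16 arrays by each of its 4 probe sets (1417504_at, 1448738_at, 1456934_at and 1458836_at), and Slc1a6 by 1418933_at. Their transcripts were therefore seen in both brain parts, and differences in amount were not measurable on this scale.

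In order of the number of rest-of-brain arrays on which they were detected, the 13 probe sets ran from Pcp2 1419084_a_at and 1424944_at (1 of 8) through Pcp2 1419085_at, Car8 1424958_at and Homer3 1424859_at (4 of 8 each) and Ppp1r17 1449240_at (6 of 8) to the 7 probe sets at 8 of 8. Neighbours at the same number cannot be ordered.

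Over all 16 arrays, none of the 13 members passed an adjusted p of 0.05 between the brain parts by Fisher's exact test, and neither did any other probe set (0% of 45101). That count of 0 holds for the full 16 arrays: with any 1 array left out, 144 to 257 probe sets were called (0.319% to 0.57% of all), none of them a member. Without adjustment 2 of 13 had an exact p under 0.05, both from Pcp2, against 2.76% of all probe sets. The smallest exact p that 8 against 8 arrays allow is 0.000155. When the adjustment covered only the 3873 probe sets detected on enough but not too many arrays to reach an exact p under 0.05, 17.1% of these were called, 5.55% higher in the cerebellum and 11.5% higher in the rest of the brain. Of the members, 4 belonged to those 3873 and none was called: the adjusted p was 0.0507 for both Pcp2 probe sets and 0.551 for Car8 1424958_at and Homer3.

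Among the probe sets that could reach the threshold, the call on Pcp2 1419084_a_at and 1424944_at depended on single arrays. Both were called without WT female cerebellum replicate 2 (20.7% of the probe sets tested were called), without KO female rest-of-brain replicate 1 (15.3%) and without both (20.1%). With both left out they were detected on all 7 cerebellum and none of 7 rest-of-brain arrays, 15.4% of the members, against 0.239% of all probe sets. These are the arrays on which the 2 probe sets went against the rest of their brain part, so leaving them out had to widen the contrast, and the values without them are a description and no test. Adjusted over all probe sets, no member was called without them either.

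Within each genotype and sex, a probe set was counted as switched when it was detected on both arrays of one brain part and on neither of the other. With 2 arrays against 2 the smallest exact p is 0.333, so these counts carry no test. In WT females 1 of 13 members was switched towards the cerebellum, Pcp2 1419085_at, against 0.856% of all probe sets. In WT males 2 were, Pcp2 1419084_a_at and 1424944_at, against 1.47%. In KO females there was none, against 1.21%. In KO males there were 3, the same 2 of Pcp2 and Car8 1424958_at, against 1.38%. No member was switched towards the rest of the brain in any of the 4 settings. The 2 female counts each include 1 of the named arrays. Leaving that array out leaves a single array on 1 side, and more of all probe sets are then switched too. Counts without it are therefore not given.

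The comparison of KO with WT asks whether loss of the SINE isoform changed which Purkinje cell transcripts were seen. In the male cerebellum all 13 members were detected on all 4 arrays, 2 WT and 2 KO, so no member was switched, while 1.1% of all probe sets were. In the female cerebellum WT replicate 1 and both KO arrays detected all 13. None was switched (1.45% of all probe sets were), but 5 of 13 (38.5%) were detected on these 3 arrays and not on WT replicate 2: Pcp2 1419084_a_at and 1424944_at, Car8 1424958_at, Ppp1r17 and Homer3. The same pattern was shown by 1.77% of all probe sets. The share of members detected was 19.2 percentage points higher in KO than in WT females, a difference made wholly by WT replicate 2. Without that array both genotypes were at 100% in the cerebellum of either sex.

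Markers of other regions also differed in the female cerebellum. Of 14 probe sets of hindbrain and brain stem markers, 71.4% and 64.3% were detected on KO female cerebellum replicates 1 and 2, against 28.6% and 7.14% on the WT female replicates and 7.14% on every male cerebellum array. Switched towards KO in the female cerebellum were Hoxa5 1443803_x_at, Hoxb5, Hoxb6 and Hoxc5 1439885_at, homeobox factors of the posterior neural tube, and, outside the rule for named genes, Slc6a4, the serotonin transporter. Switched towards WT were 2 of the 15 probe sets of thalamus and midbrain markers, Synpo2 1452879_at and Tnnt1 1419606_a_at. In that comparison 1.45% of all probe sets were switched in either direction. The part of these markers in the female comparison was not tested, and the Purkinje cell markers themselves did not distinguish WT replicate 1 from the KO arrays.

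In the rest of the brain, no member was switched between KO and WT females, against 0.94% of all probe sets. Only on KO replicate 1 among the 4 female arrays were 4 of 13 members detected (30.8%): the 3 probe sets of Pcp2 and Homer3. This pattern was shown by 1.03% of all probe sets. KO replicate 2 detected the fewest members of all 16 arrays, 53.8%. In males 1 member was switched, Car8 1424958_at, detected on both WT and neither KO array, against 1.02% of all probe sets. The other Car8 probe sets were detected on all of these arrays.

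Over all arrays, 4 of 13 members (30.8%) were detected on more KO than WT arrays, against 9.11% of all probe sets, and 1 (7.69%) on more WT arrays, against 10.4%. Both Pcp2 probe sets 1419084_a_at and 1424944_at were detected on 5 KO and 3 WT arrays (exact p = 0.619), Homer3 on 6 and 5, Ppp1r17 on 7 and 6, Car8 1424958_at on 5 and 6, and Pcp2 1419085_at on 6 of each. None was called by Fisher's exact test, adjusted over all probe sets (0% of all were) or over those able to reach the threshold (0%). No member had an unadjusted exact p under 0.05, against 0.0843% of all probe sets. With WT female cerebellum replicate 2 and KO female rest-of-brain replicate 1 left out, which leaves 7 arrays of each genotype, Homer3 was detected on 5 of each, Ppp1r17 on 6 of each and Car8 1424958_at on 4 KO and 6 WT arrays. The same 2 Pcp2 probe sets were then detected on 4 KO and 3 WT arrays, which are all the cerebellum arrays left of each genotype.

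Between females and males no member was called either, by adjustment over all probe sets (0% of all were) or over those able to reach the threshold (0%), and none had an unadjusted exact p under 0.05, against 0.286% of all probe sets. The largest gap was that of Homer3, detected on 4 female and 7 male arrays (exact p = 0.282), followed by Pcp2 1419085_at on 5 and 7 (exact p = 0.569). With the 2 named arrays left out, both were detected on 3 of 6 female and 7 of 8 male arrays. The 3 female arrays without detection of Pcp2 1419085_at, and 3 of the 4 without Homer3, were from the rest of the brain.

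**Figure D3:**
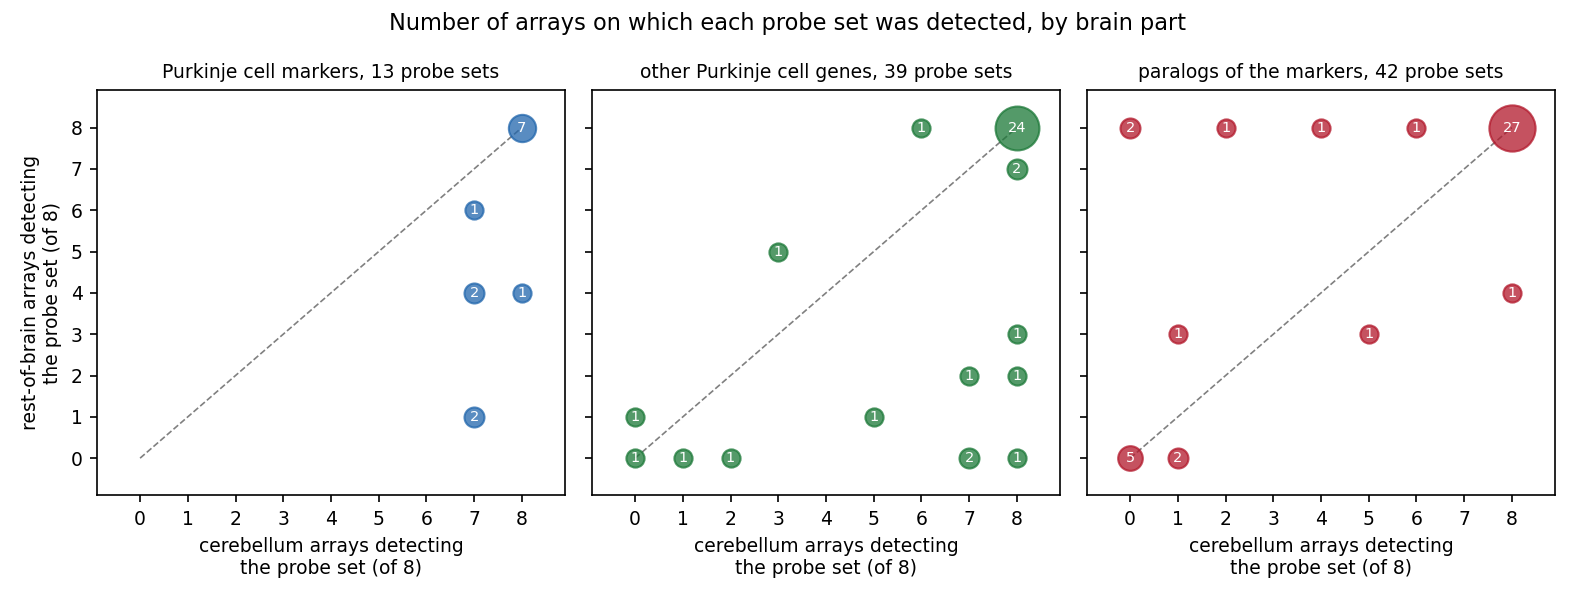
Number of cerebellum arrays (horizontal axis, of 8) and rest-of-brain arrays (vertical axis, of 8) on which each probe set was detected, for the 13 Purkinje cell marker probe sets, 39 of other Purkinje cell genes and 42 of paralogs; each circle is a combination, the number in it the probe sets there, and the dashed line equal numbers. No marker lies above the line, while 6 of the 42 paralog probe sets and 3 of the 39 of other Purkinje cell genes do, against 12.7% of all probe sets.

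Other genes with a place in Purkinje cells were read by 39 probe sets of 16 genes. Of these, 24 were detected on all 16 arrays, 11 on more cerebellum arrays (against 9.64% of all probe sets) and 3 on more rest-of-brain arrays (against 12.7%). The share detected per array ran from 79.5% to 92.3% in the cerebellum and from 69.2% to 76.9% in the rest of the brain, and without the 2 named arrays from 82.1% to 92.3% and from 69.2% to 76.9%. None was called over all probe sets, although 6 of the 39 had an unadjusted exact p under 0.05, against 2.76% of all probe sets. Among the 8 that could reach the threshold, 4 were called, all higher in the cerebellum. Of all 3873 such probe sets, 5.55% were called in that direction. The 4 were both probe sets of Lhx1, Fam107b 1416893_at and Rora 1458145_at. Fam107b and Rora are named after their values were seen. Both genes were also seen in the rest of the brain. Fam107b 1416892_s_at was detected on all 16 arrays. So were Rora 1420583_a_at, 1424034_at, 1436325_at, 1436326_at, 1455165_at and 1458129_at. Lhx1, a LIM homeobox factor of Purkinje cells, was the only gene of this list with a probe set that separated the brain parts fully: 1450428_at was detected on all 8 cerebellum and no rest-of-brain array (exact p = 0.000155, adjusted p = 0.0501 over all probe sets), a pattern shared by 0.0554% of all probe sets. WT female cerebellum replicate 2 thus detected Lhx1 1450428_at while it did not detect 1419084_a_at and 1424944_at of Pcp2. The second Lhx1 probe set, 1421951_at, was detected on the other 7 cerebellum arrays, was marginal on this one, and was detected on none in the rest of the brain. Ebf2 1449102_at, which reads a helix-loop-helix factor, was detected on both WT and neither KO array of the male cerebellum. In that comparison 1.1% of all probe sets were switched in either direction. In the female cerebellum Ebf2 1449102_at was detected on WT replicate 2 and both KO arrays. Ebf2 1418494_at was detected on all 8 cerebellum arrays, those of KO males included, and 1449101_at on none of the 16 arrays.

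The other genes of glutamate receptor, IP3 and calcium signalling, 46 probe sets of 14 genes, were detected about as widely in both brain parts. More cerebellum arrays detected 7 of them (against 9.64% of all probe sets) and more rest-of-brain arrays 6 (against 12.7%). The share of this list detected per array was 73.9% to 82.6% in the cerebellum and 78.3% to 84.8% in the rest of the brain. These ranges were the same with and without the 2 named arrays. None was called over all probe sets. Among the 4 that could reach the threshold, 2 were called, both higher in the rest of the brain. Of all 3873 such probe sets, 11.5% were called in that direction. Both were of Camk2a, the calmodulin-dependent kinase of forebrain excitatory neurons. Its probe set 1442707_at was detected on all 8 rest-of-brain and no cerebellum array, as were 0.255% of all probe sets. Camk2a was nevertheless seen in the cerebellum by 1457311_at, detected on all 16 arrays, and by 1443876_at, detected on 7 of 8 cerebellum arrays. In the female cerebellum 3 were detected on both KO and neither WT array, as were 335 of all 45101 probe sets. They were Atp2a3 1450124_a_at, a calcium pump of internal stores, and Camk4 1421941_at and 1426167_a_at, a nuclear calmodulin-dependent kinase. Camk4 1439843_at and 1441974_at were detected on all 16 arrays, those of WT females included, as was Atp2a3 1421129_a_at.

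Paralogs are the other members of the same gene families, such as Homer1 and Homer2 for Homer3 or the other glutamate transporters for Slc1a6. Of 42 probe sets of 16 paralogs, 27 were detected on all 16 arrays. More cerebellum arrays detected 4 of them (against 9.64% of all probe sets) and more rest-of-brain arrays 6 (against 12.7%). The share of paralog probe sets detected per array was 69% to 76.2% in the cerebellum and 76.2% to 83.3% in the rest of the brain. These ranges were the same with and without the 2 named arrays. None was called over all probe sets. Among the 4 that could reach the threshold, 3 were called, all higher in the rest of the brain. Of all 3873 such probe sets, 11.5% were called in that direction. Homer1 1425710_a_at was detected on all 8 rest-of-brain and no cerebellum array, the reverse direction to Homer3. Slc1a1 1460386_a_at, of a neuronal glutamate transporter related to Slc1a6, had the same pattern, while its other probe sets 1425415_a_at and 1448299_at were detected on all 16 arrays. Slc1a2 1451627_a_at, of the main astrocyte glutamate transporter, is named after its values were seen. It was detected on all 8 rest-of-brain and 2 cerebellum arrays. These 2 were WT female replicate 2, which is 1 of the named arrays, and WT male replicate 2. On WT female replicate 1 and KO female replicate 2 of the cerebellum it was marginal. Slc1a2 1438194_at and 1439940_at were detected on all 16 arrays. Of Homer1, 3 other probe sets were detected on all 16 arrays. Rgs14 1419221_a_at, which like Pcp2 holds a GoLoco motif, was detected on both KO and neither WT array of the male cerebellum. In the female cerebellum it was detected on WT replicate 1 and KO replicate 1. Of all probe sets, 1.1% were switched between the genotypes in the male cerebellum, in either direction.

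The genes of synthesis, release and breakdown of GABA, the transmitter of Purkinje cells, were read by 10 probe sets of 4 genes. Of these, 6 were detected on all 16 arrays and 4 on none, so the share was 60% on every array. None was detected on more arrays of one brain part than of the other, and differences in amount were not measurable on this scale.

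Probe sets with the detection pattern most like that of the varying members were taken from all probe sets with a single symbol, over the 16 arrays. Pcp2 1419084_a_at and 1424944_at shared their state on 16 of 16 arrays with 10 probe sets of other genes, the first of which by alphabet were Adnp2, Aqp6, B3gnt5, Eomes and Fat2. Pcp2 1419085_at shared its state on 16 arrays with A930017K11Rik and Mab21l1. Homer3 did so with Nrk. Car8 1424958_at came no closer than 15 of 16 arrays, with 7 probe sets, among them Cbln3, a granule cell secreted protein, Dgkd, Mindy1, Slf2 and Sycp1. Ppp1r17 likewise reached 15 of 16 with 10, among them Anks1b, Cemip2, Cenpo, Hoga1 and Plin2. These likenesses are descriptions of calls on 16 arrays, and the 2 named arrays weigh in each of them.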

How the data were processed

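RNA was extracted with TRIzol from cerebellum and from the rest of the brain, after brain stem remnants had been cleaned off by hand, amplified with a 3' IVT kit, labelled with biotin and hybridised to Affymetrix arrays. Although a human array is named in the methods, the probe sets belong to a mouse array. The authors' methods and processing notes give MAS5 for the processing, and their results section gives RMA normalisation with the LSTNR method. The table the authors deposited has 16 arrays, 45101 probe sets and 5 distinct values. As 4-byte numbers these differ in the first byte alone, which as a signed integer is 2 (59.7% of values), 1, 0, -1 or -2. Level 2 was taken as detected and all others as not detected. This reading is stated neither by the authors nor in the file.

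Symbols came from the platform annotation, in which 34958 probe sets have 1 symbol and 932 several, and 9211 are unnamed here. Each probe set was tested by Fisher's exact test, two-sided, of detected against not detected on 8 against 8 arrays, with p-values adjusted by Benjamini-Hochberg over the whole table and called under 0.05, and again over the 3873 probe sets that could reach an exact p under 0.05. Groups of 2 arrays were compared by counts of switched probe sets alone. Group and replicate number came from the sample titles. Nothing in the labels says how arrays of a group relate beyond coming from separate samples, so the spread between them may be technical in part. Named genes were the members, genes of each list detected on all arrays of one brain part and none of the other or switched between genotypes in the cerebellum of one sex (at most 4 per list and comparison, by alphabet), and up to 5 genes of most like pattern. Other named genes, Slc6a4 among them, were chosen after their values were seen. The members and gene lists were chosen with earlier results of these data known, and the lists are no independent evidence. Some genes of the lists are not reported here. Marker lists of Bergmann glia and astrocytes (20 probe sets), thalamus and midbrain (15) and choroid plexus (9) were also read: 80% to 85%, 40% to 66.7% and 44.4% to 88.9% of them were detected on cerebellum arrays, and 85%, 73.3% to 80% and 77.8% to 88.9% on rest-of-brain arrays. No 2 arrays shared more than 91.2% of their levels, and none was counted as a duplicate. The test was also run on simulated data, whose setting and outcome are not reported here, and no conclusion is drawn from that run. Alternatives were the marginal level counted as detected, negative levels left out, genes in place of probe sets, probe sets named _s_at, _x_at or _a_at left out, each array left out in turn, and a replicate block. Promoter windows were those of RefSeq on GRCm38.p6. Tests used scipy 1.17.1, tables pandas 2.3.3 and numpy 2.4.6, and figures matplotlib 3.10.9, under Python 3.11.15.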

Additional observations from a re-analysis of the deposited data

Results flagged for a closer look

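The share of Purkinje cell marker probe sets detected on WT female cerebellum replicate 2, 61.5%, lay far from the others in each of 3 overlapping groups: the 8 cerebellum arrays, the 4 female cerebellum arrays and the 4 WT cerebellum arrays. The remaining arrays of these groups were all at 100%, so the gap to the nearest array was the whole range. Of 10 groups of 4 or 8 arrays examined, these 3 had such an array, and it is the same array each time. The limit used is passed by chance in about 1 in 20 groups of unbounded values. That rate does not apply here, because with all other arrays at the ceiling any single lower array passes it, even by 1 probe set. The same array detected 68.4% of the granule cell probe sets and 63.6% of the forebrain probe sets, and the part of these markers was not tested. KO female rest-of-brain replicate 1, at 100%, did not pass the same limit, its gap to the nearest array being 0.333 of the range over the 8 rest-of-brain arrays.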

How the results depend on the processing

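Over 14 results, 156 of 172 values under another setting were counted as unchanged, a label that allowed wide moves. The KO minus WT share in the female cerebellum, 19.2 points with an SD of 27.2, kept that label throughout. It was 0 without WT replicate 2 and 38.5 without WT replicate 1, so the tally does not show that this difference was stable. No member was called between brain parts, genotypes or sexes, over all probe sets, with the marginal level counted as detected, negative levels left out, genes in place of probe sets, _s_at, _x_at and _a_at probe sets left out, or any array left out (0 to 0 in each). Between brain parts the count over all features, 0 with all arrays and probe sets, was 144 to 257 with 1 array left out (257 without WT female cerebellum replicate 2), 61 by gene and 113 without those 3 kinds of probe set. Between brain parts 2 were called, both of Pcp2, over the probe sets that could reach the threshold once WT female cerebellum replicate 2, KO female rest-of-brain replicate 1 or both were left out. Counted by gene, switched members fell to 0 in WT males, in KO males and in the male rest of brain, since a gene counts as detected when any of its probe sets is. Without _s_at, _x_at and _a_at probe sets WT males kept 1. Leaving out 1 array moved switched counts between brain parts to 1 to 4 in WT females and 0 to 6 in KO females. Between KO and WT it moved them to 0 to 4 in the female rest of brain, 0 to 5 in the cerebellum of females and 1 to 2 in the male rest of brain. These counts then rest on a single array on 1 side, and more of all probe sets were then switched too. Between brain parts these numbered 1118 with all arrays and 1951 to 2505 with 1 left out in WT females. In KO females they numbered 1361 and 2252 to 2624. Between KO and WT they numbered 424 and 1231 to 1418 in the female rest of brain. In the female cerebellum they numbered 655 and 1508 to 2215, and in the male rest of brain 462 and 1340 to 1369. Between brain parts, the correlation of deviations between same-numbered arrays was -0.02 to 0.05 across 11269 varying probe sets. Between genotypes and between sexes, where the mice differ, it was -0.02 to 0.06 and -0.03 to 0.07. With 2 arrays per group and a few levels per probe set, these values cannot show whether same-numbered arrays share an animal. With the replicate block, by an exact sign test on 8 pairs, 0 members were called in each of the 3 comparisons, and the lowest exact p between brain parts was 0.0312.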
